A study of Mus musculus with 18 samples.

Results

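The genes described here mark the walls of brain blood vessels. They are 5 genes of endothelial cells (Cldn5, Pecam1, Flt1, Kdr and Slco1a4) and 5 of mural cells (Vtn, Rgs5, Pdgfrb, Myl9 and Acta2). The genes were chosen with earlier results of these data known. For these genes, all probe sets annotated to exactly 1 of the symbols were taken, whatever their values. This gave 20 probe sets for the 10 genes, out of 45037 probe sets and 18193 genes measured. Of the 10 genes, 5 had 1 probe set each, Flt1 and Rgs5 had 4, Acta2 had 3, and Vtn and Pdgfrb had 2.

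Endothelial cells line the vessels and, in brain, form the blood-brain barrier through tight junctions and selective transporters. Pericytes and smooth muscle cells, together called mural cells, wrap that tube, stabilise it and set its diameter. Endothelial cells release platelet-derived growth factor (PDGF), which mural cells read through Pdgfrb, and themselves read vascular endothelial growth factor (VEGF) from surrounding cells through Flt1 and Kdr.

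The series holds 18 arrays in 2 groups of 9, all labelled transgenic, with the strain C57BL/6J X DBA/2J. The mice carried a bacterial artificial chromosome on which a flag-tagged rat poly(A)-binding protein (PABP), followed by eGFP, took the place of the orexin coding sequence. In the first group (IP), polyA RNA bound to the tagged protein was recovered with anti-flag beads, and the labels assign it to orexin-expressing cells, while the second group (WB) was total RNA of whole brain. The protocol given for all samples describes perfusion with heparin and formaldehyde, and does not describe the whole brain extraction separately. Ages of 11 and 14 weeks are given without assignment to samples, and no mice without the transgene were analysed here. Nothing in the labels says that each array came from its own animal, so the spread behind each p-value is that of these samples and may be partly technical. The orexin gene's sequence on the artificial chromosome drives the transgene, so vessel wall cells are not the cells named on the IP labels, and the comparison asks how much vascular message the immunoprecipitate held against whole brain. Hcrt, the orexin gene itself, had a difference of 0.21 (IP minus WB, log2, SE 0.28, limma adjusted p = 0.568), ranging from -0.64 to 0.64 over 3 other scalings of the arrays.

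Values are deposited intensities on a linear scale, and differences are IP minus WB of log2(intensity + 16), which makes the folds of dim probe sets too small. Spread was wider in IP, with a median SD of 0.74 against 0.34 in WB (log2). The Gapdh control had a 3′ over 5′ ratio of 3.37 to 5.55 on IP arrays and of 1.33 to 1.78 on WB arrays (log2, exact permutation p = 4.11e-05, the smallest these 18 arrays can give). The beta-actin ratio differed less, with medians of -0.22 in IP and -0.20 in WB (exact permutation p = 0.242). It ran from -1.33 to 0.0009 on IP arrays and from -0.23 to 0.03 on WB arrays, so IP reached lower. Besides the deposited scaling, arrays were set equal by quantiles, by their medians, or by their hybridization controls (called control scaling below). Over all probe sets the median difference was -0.23 as deposited, 0.11 by quantiles, 0.20 by medians and -1.03 by control scaling. Higher probe sets made up 31.6%, 52.3%, 60.6% and 4.94% of the calls under these 4 scalings.

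With the deposited scaling, most of the 20 probe sets were lower in the immunoprecipitate. With median centring 9 were lower, as were 18.5% of all probe sets. At an adjusted p of 0.05 in limma, 12 of the 20 fell, 1 rose and 7 did not pass, while 30.8% of all probe sets fell and 14.2% rose (45% in either direction). Of the 12 falls, Rgs5 gave 4 and Flt1 gave 3. The median difference of the 20 was -0.97 on the log2 scale, against -0.23 for all probe sets. On 5 probe sets, of Cldn5, Vtn (both), Rgs5 and Myl9, every IP array lay below every WB array, a pattern seen in 10.3% of all probe sets. On 1 probe set, of Pdgfrb, every IP array lay above every WB array, as in 5.22% of all probe sets. By cell class, 5 of 8 endothelial probe sets fell and 0 rose, with a median of -1.06, and 7 of 12 mural probe sets fell and 1 rose, with a median of -0.79. The groups also differ in preparation, polyA RNA recovered on beads against total RNA. Fewer cells of a type, less RNA per cell and this preparation cannot be told apart here.

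All 20 probe sets had a WB mean above the highest of the 3 trpn controls, bacterial transcripts whose probe sets read near the dim end of these arrays (log2 5.92 in WB). In IP, 18 of the 20 lay above the corresponding control value of 6.31. The 2 exceptions were Myl9 and the dimmest probe set of Flt1.

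**Figure D1:**
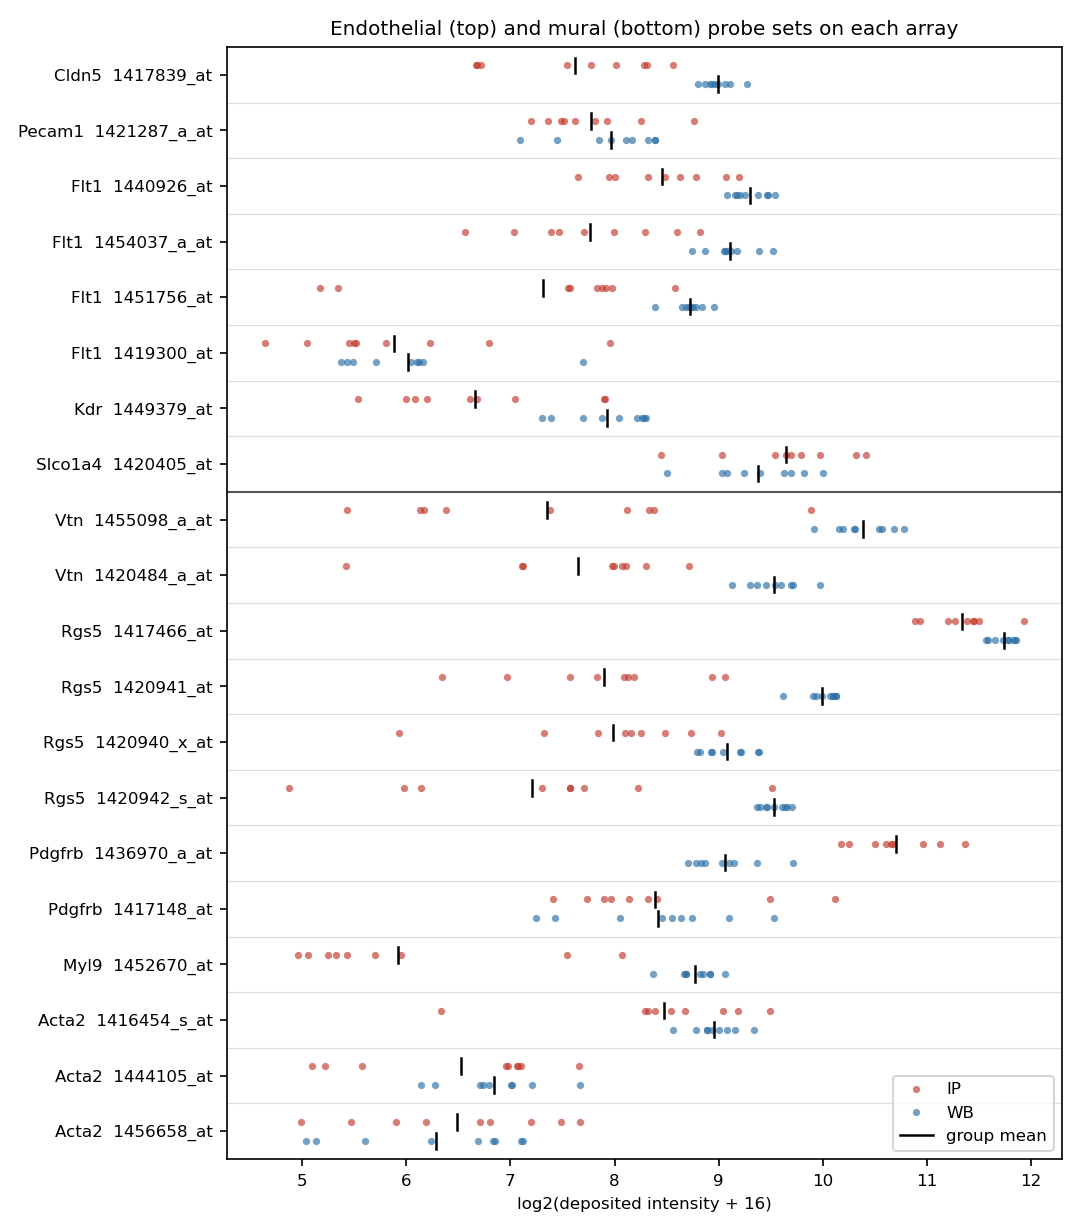
Each of the 20 probe sets is shown with its 9 IP arrays (red, upper row) and 9 WB arrays (blue, lower row) as log2(deposited intensity + 16), and a black bar marks the group mean. Both Vtn probe sets and Myl9 show IP points far to the left of WB, Pdgfrb 1436970_a_at shows them to the right, and IP points are more scattered than WB points in most rows.

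Among endothelial genes, Cldn5 encodes claudin-5, the main sealing protein of brain endothelial tight junctions. Its single probe set read 86.1, 202 and 363 in IP (lowest, median and highest of 9) against 431, 483 and 602 in WB. The highest IP array stayed under the lowest WB array, and IP replicates 1, 3 and 4 were the dimmest, from 86.1 to 89.1. Cldn5 fell 2.59-fold (-1.37, SE 0.26, limma adjusted p = 0.000118), and the difference was between -2.26 and -0.95 under every other setting tried.

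Flt1, or VEGF receptor 1, binds VEGF tightly and holds it back from Kdr, in part as a secreted form. Its brightest probe set (1440926_at) read 184, 343 and 572 in IP against 526, 592 and 726 in WB, with 8 of 9 IP arrays below all WB arrays. It fell 1.80-fold (-0.85, SE 0.20, limma adjusted p = 0.00119). With median centring this difference was -0.42 and did not pass (adjusted p = 0.0806). Probe set 1454037_a_at read 78.9, 193 and 436 in IP against 413, 525 and 720 in WB, and fell by 1.35 on the log2 scale (SE 0.26, limma adjusted p = 0.000129). Probe set 1451756_at read 20.0, 211 and 368 in IP against 319, 409.8 and 481 in WB, and fell by 1.41 (SE 0.37, limma adjusted p = 0.00288). On 1451756_at, IP replicates 2 and 6 stood apart at 20.0 and 24.8, while the other 7 IP arrays read 171 or more.

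The fourth Flt1 probe set (1419300_at) was dim in both groups, with medians of 29.7 in IP and 50.0 in WB, and did not pass (-0.13, 95% confidence interval from -0.92 to 0.66, limma adjusted p = 0.809). Measured within arrays, the gap between the brightest Flt1 probe set and each of the other 3 did not differ between IP and WB past the threshold (exact permutation, adjusted p of 0.199, 0.275 and 0.215 over 10 such pairs). Averaged over 4 probe sets, Flt1 fell by 0.93 (SE 0.19, limma adjusted p = 0.000403).

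Kdr, or VEGF receptor 2, is the main signalling receptor for VEGF in endothelial cells. Its single probe set read 30.4, 82.0 and 224 in IP against 142, 247 and 299.8 in WB. The groups overlapped through IP replicates 3 and 6, at 223 and 224, while the other 7 IP arrays lay below every WB array. Kdr fell 2.41-fold (-1.27, SE 0.32, limma adjusted p = 0.002). The receptors Flt1 and Kdr both had passing falls, on 4 of their 5 probe sets together.

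Pecam1, the adhesion molecule CD31 found at endothelial cell contacts, did not pass. Its probe set read 131, 181 and 419 in IP against 120.3, 260.4 and 320.1 in WB, and the ranges overlapped. The difference was -0.20 (95% confidence interval from -0.72 to 0.32, limma adjusted p = 0.550). Under control scaling it was -1.06 (adjusted p = 0.00694), which lay 0.04 below that scaling's median over all probe sets.

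Slco1a4 encodes an organic anion transporter of the barrier. With the deposited scaling, it alone among the endothelial member genes had a positive difference. It read 333, 811 and 1347 in IP against 347, 658 and 1007 in WB, with 2 IP arrays above and 1 below the whole WB range. The difference of 0.27 did not pass (95% confidence interval from -0.22 to 0.76, limma adjusted p = 0.374). With median centring it was 0.70 and passed (adjusted p = 0.0136), and under control scaling it was -0.65 and did not pass (adjusted p = 0.0688).

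**Figure D2:**
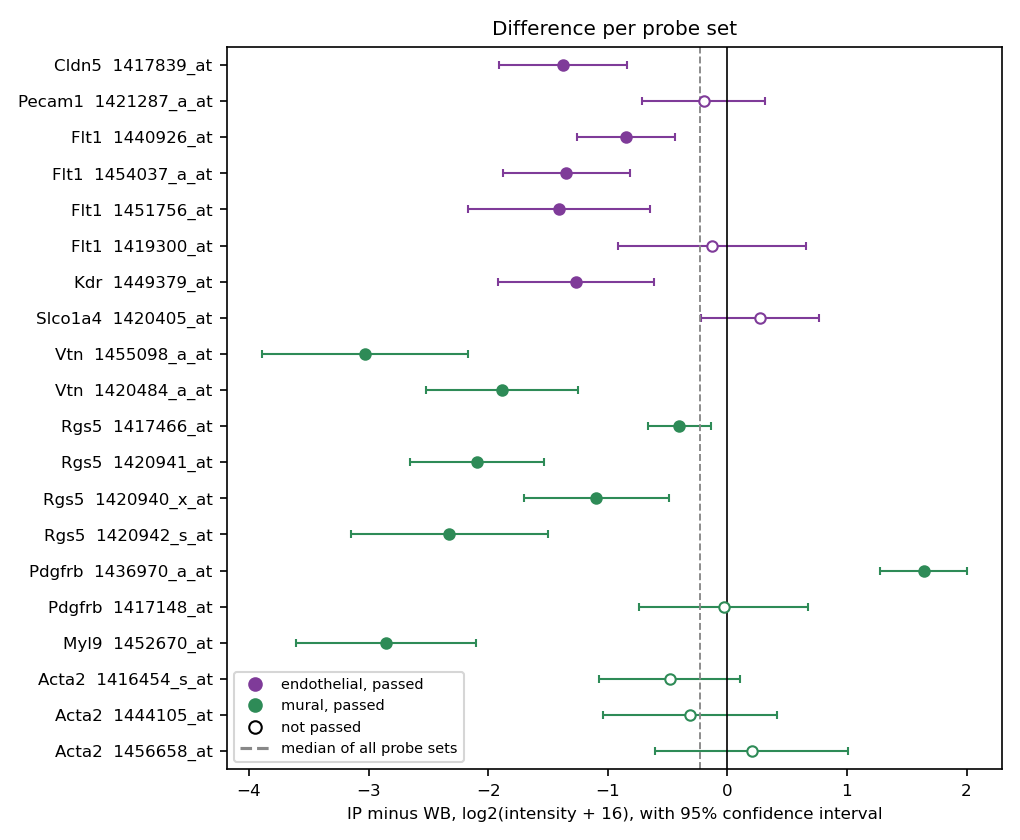
The difference between IP and WB in log2(intensity + 16) is shown for each probe set with its 95% confidence interval, filled where the adjusted p was under 0.05. The intervals of Vtn 1455098_a_at and Myl9 end below -2, while that of Pdgfrb 1436970_a_at lies wholly above 1.

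Among mural genes, Vtn encodes vitronectin, a matrix glycoprotein that pericytes secrete in brain. Its brighter probe set (1455098_a_at) read 27.0, 151 and 929 in IP against 949, 1257 and 1746 in WB. No IP array reached the WB range, but IP replicate 7 came within a few percent of its lower end while IP replicates 2, 4, 5 and 6 lay between 27.0 and 67.6. This probe set fell 8.15-fold (-3.03, SE 0.42, limma adjusted p = 1.86e-06). The other (1420484_a_at) read 26.8, 239 and 403 in IP against 545, 730.0 and 986 in WB, again without overlap, and fell 3.69-fold (-1.88, SE 0.31, limma adjusted p = 2.02e-05). The brighter probe set fell further, as the within-array gap between them was -0.29 ± 1.21 in IP and 0.85 ± 0.34 in WB (log2, SD, n = 9 each, exact permutation adjusted p = 0.0248).

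Rgs5 shortens G-protein signalling and is a widely used pericyte marker. On its brightest probe set (1417466_at) it read 1879, 2652 and 3891 in IP against 3009, 3495 and 3697 in WB. All IP arrays but replicate 5 lay below every WB array, and IP replicate 5 lay above every one. The fall was 1.32-fold (-0.40, SE 0.13, limma adjusted p = 0.0119), and with median centring the difference was 0.024 and did not pass (adjusted p = 0.911). By quantiles it was -0.76 (limma adjusted p = 3.52e-06). Under control scaling it was -1.34, where the median over all probe sets was -1.03.

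The other 3 Rgs5 probe sets also fell. Probe set 1420941_at read 65.5, 257 and 519 in IP against 769.8, 1060.3 and 1103 in WB, with no overlap, and fell 4.26-fold (-2.09, SE 0.27, limma adjusted p = 7.9e-07). Probe set 1420942_s_at read 13.3, 175 and 715 in IP against 645, 726 and 820.5 in WB, with IP replicate 1 alone inside the WB range, and fell 5.01-fold (-2.32, SE 0.40, limma adjusted p = 3.84e-05). Probe set 1420940_x_at, of an ID class that can match several genes, fell by 1.09 (SE 0.29, limma adjusted p = 0.00351). With median centring its difference was -0.67 and did not pass (adjusted p = 0.0621).

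Within arrays, 2 of these gaps differed between the groups. The brightest Rgs5 probe set exceeded 1420941_at by 3.43 ± 1.03 in IP and by 1.74 ± 0.16 in WB (log2, SD, n = 9 each, exact permutation adjusted p = 0.000411), and the 2 groups did not overlap. It exceeded 1420942_s_at by 4.12 ± 1.39 in IP and by 2.20 ± 0.15 in WB (exact permutation adjusted p = 0.00206). Against 1420940_x_at the gap did not pass (3.35 in IP, 2.66 in WB, exact permutation adjusted p = 0.0754). A within-array gap shows that probe sets of a gene changed unequally, and not which of them tracks the message. The 3′ to 5′ ratio of Gapdh, given above, also differed between the groups, and its part in these gaps was not tested.

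**Figure D3:**
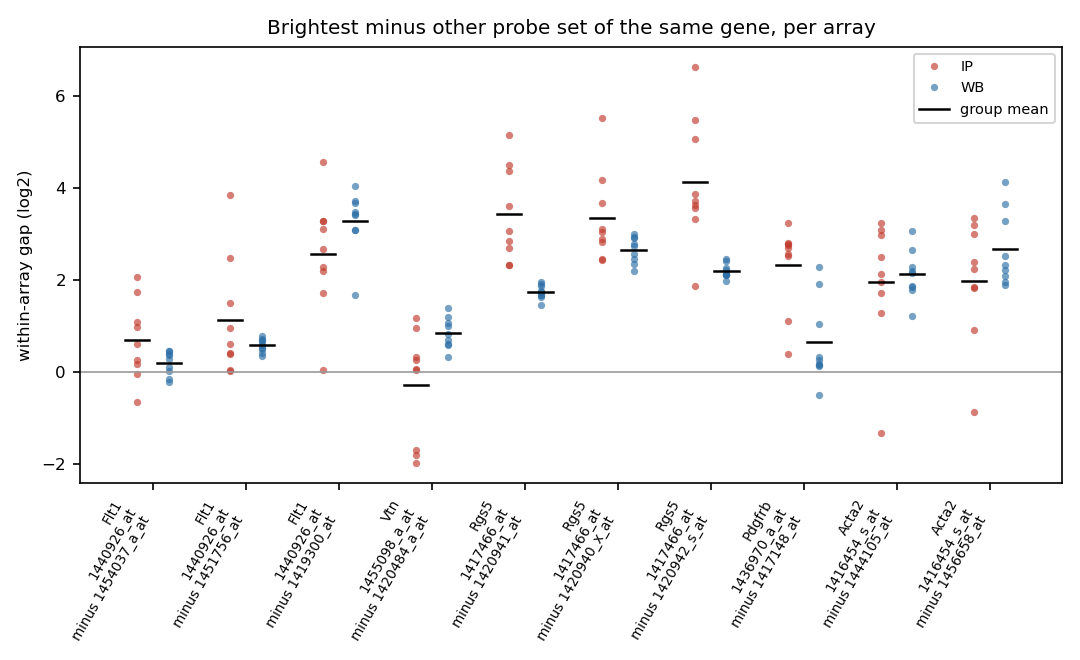
For each of 10 pairs, the log2 value of a gene's brightest probe set minus that of another probe set of the same gene is shown on every array, IP at left (red) and WB at right (blue) with the group mean as a bar. The gap is wider in IP for Rgs5 1417466_at against 1420941_at and 1420942_s_at and for Pdgfrb, and lower in IP for Vtn.

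Pdgfrb, the receptor through which PDGF recruits pericytes and smooth muscle cells, was the only member gene with a rise under the deposited scaling. Probe set 1436970_a_at read 1138, 1591 and 2628 in IP against 402, 506 and 824 in WB, so that the lowest IP array exceeded the highest WB array. It rose 3.12-fold (1.64, SE 0.18, limma adjusted p = 3.59e-08) and passed under every other setting tried, with differences from 0.72 to 2.07. The second probe set (1417148_at) read 154, 265 and 1091 in IP against 136, 359 and 723 in WB, with full overlap and a difference of -0.03 (95% confidence interval from -0.74 to 0.68, limma adjusted p = 0.956). IP replicates 6 and 8, at 1091 and 705, were the highest IP arrays on it. The gap between both probe sets was 2.31 ± 0.93 in IP and 0.64 ± 0.92 in WB (log2, SD, n = 9 each, exact permutation adjusted p = 0.0107). The rise of Pdgfrb rested on 1 of its 2 probe sets.

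Myl9 encodes the regulatory myosin light chain of smooth muscle, whose phosphorylation starts contraction. It read 15.2, 27.3 and 254 in IP against 314, 438 and 518 in WB. IP replicates 1 and 2, at 254 and 171, exceeded the other 7 IP arrays, which read at most 46.0, and both stayed below the WB range. Myl9 fell 7.22-fold (-2.85, SE 0.36, limma adjusted p = 6.24e-07). Its IP mean of 5.92 was below the trpn level, so the size depends on the constant added to each value, with -3.35 for 1 and -2.07 for 64.

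Acta2 encodes smooth muscle actin, the contractile filament that works with Myl9. None of its 3 probe sets passed. The brightest (1416454_s_at, of a class with sequence shared between transcripts) read 64.9, 356 and 702 in IP against 362, 472 and 634 in WB, and its difference was -0.48 (95% confidence interval from -1.08 to 0.11, limma adjusted p = 0.180). On the brightest probe set the lowest IP array, replicate 7, stood well apart from the next at 298, and without it the difference was -0.22 and still did not pass. Probe sets 1444105_at and 1456658_at were dim, with medians of 110.4 and 88.3 in IP and 95.2 and 86.9 in WB, and differences of -0.31 and 0.20 (limma adjusted p = 0.501 and 0.707). Under control scaling, 1416454_s_at and 1444105_at passed as lower, at -1.39 and -1.04, which lay 0.36 and 0.01 below that scaling's median.

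**Figure D4:**
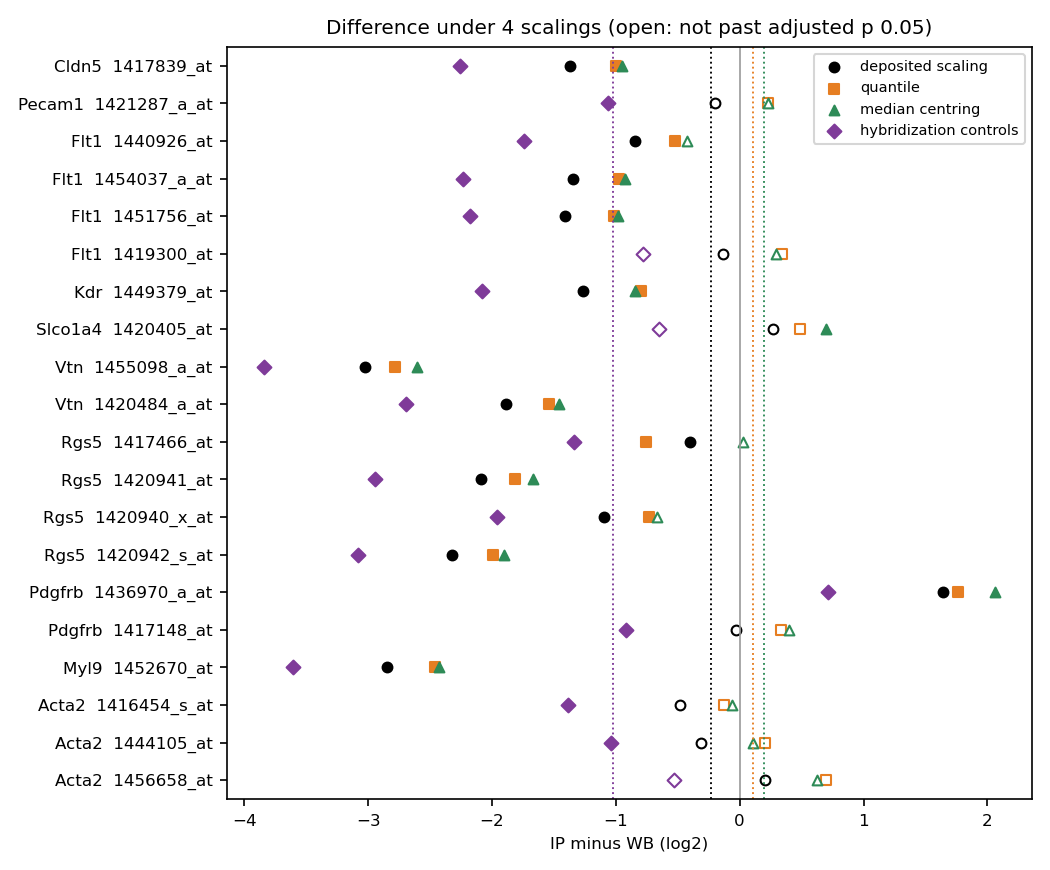
The difference between IP and WB (log2) is shown for every probe set under the deposited scaling and 3 others, filled where the adjusted p was under 0.05, with a dotted line at each scaling's median over all probe sets. Vtn, Myl9, Cldn5, Kdr, the 3 passing probe sets of Flt1 and the 3 dimmer probe sets of Rgs5 lie below 0 under all 4 scalings and Pdgfrb 1436970_a_at above 0, whereas Pecam1 and Slco1a4 are among those that change side.

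On single IP arrays, between 11 and 14 of the 20 probe sets (55% to 70%) lay below the whole WB range, and between 1 and 4 (5% to 20%) lay above it. Over all probe sets, 32.9% to 41.7% lay below the WB range on an IP array and 20.6% to 26.7% above it, so the WB range was often left in either direction. Measured as the median over the 12 mural probe sets relative to their WB means, IP replicates 6 and 8 were lowest at -2.02 and -1.52, and IP replicate 1 was highest at -0.22 (log2). Over the 8 endothelial probe sets the IP arrays ran from -1.14 in replicate 2 to -0.26 in replicate 8. IP replicate 8 was at the low end for mural and at the high end for endothelial probe sets.

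To show sequence in front of the member genes, of which some fell and some did not, promoter windows were read from RefSeq (GRCm38.p6, 250 bases before to 50 after the start), of which 8 were matched. A CArG box, the binding element of serum response factor known from smooth muscle genes, was searched on both strands by its strict form and was found in 1 of the 8 and in 1.63% of 32851 promoter windows of the same length. The motif AGGAAG, a form of the ETS family core used by many endothelial genes, was found on either strand in 2 of the 8 and in 35.4% of all windows. The matches below are 30 bases each with the motif in capitals, and they describe sequence only, since binding was not measured.
Myl9 CArG box, chr2:156775293-156775322, plus strand, first motif base at -161 from the start: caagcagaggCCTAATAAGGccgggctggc
Flt1 AGGAAG, chr5:147726047-147726076, minus strand, first motif base at -53 from the start: aggtgccggggtAGGAAGtgggctggggaa
Flt1 AGGAAG, chr5:147726123-147726152, minus strand, first motif base at -129 from the start: cgcccctccgggAGGAAGaagagggtaggt
Slco1a4 AGGAAG on the opposite strand, chr6:141856307-141856336, minus strand, first motif base at -104 from the start: tcttggcaaatcCTTCCTtggcttggtatt
Myl9 and Flt1 fell on the array, while Slco1a4 did not pass. Cldn5, Kdr, Vtn and Rgs5, for which no match is listed here, fell as well. A link between motif and difference was not tested.

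Other genes of the vessel wall and of signals that reach it, such as VEGF from surrounding cells, were examined. Not all of them are made by vessel wall cells alone. Each was read on its brightest probe set, in 8 lists with 92 measured genes. Brightness was the mean over IP and WB arrays together, so this choice favours probe sets that are high in IP. Of these, 25 rose, 22 fell and 45 did not pass, with a median of -0.04. Over all genes by their brightest probe set, 21.7% fell and 21.7% rose (43.4% in either direction). By the same choice of probe set, 6 of the 10 members fell and 1 rose, with a median of -0.67. List counts under other scalings, given below, stand beside these shares over all probe sets. With median centring 18.5% fell and 28.4% rose, by quantiles 22% and 24.1%, and under control scaling 62.4% and 3.24%.

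VEGF and angiopoietin signalling genes split, with 4 of 15 higher and 4 lower (0 and 9 under control scaling, 7 and 1 with median centring). None of the rises named in this list passed under control scaling. Among the ligands, Vegfa, the main VEGF, rose 2.45-fold on its brightest probe set (adjusted p = 6.17e-05) but fell by 0.72 on its other one (adjusted p = 0.00541). Vegfc, a lymphatic and endothelial growth factor, rose 2.52-fold (adjusted p = 0.00535) on a probe set of a class that can match several genes. Another Vegfc probe set fell by 0.87 (adjusted p = 0.0323), and the mean over 3 was -0.11 and did not pass. Vegfb, a ligand of Flt1, fell 3.65-fold (adjusted p = 2.63e-05). Vegfb was lower under all 4 scalings. Among receptors, Nrp1, a co-receptor for VEGF, rose 2.50-fold on 1 probe set (adjusted p = 6.51e-07) while its other 3 fell. Tek, the angiopoietin receptor, fell 2.39-fold (adjusted p = 0.0243), a call lost when arrays were set equal by quantiles or by medians.

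Of 5 other PDGF genes, 2 rose and 0 fell (0 and 1 under control scaling). Pdgfb, the endothelial ligand of Pdgfrb, had a difference of 0.50 that did not pass (adjusted p = 0.126) and passed by quantiles (0.92) and by medians (0.93). Under control scaling it was -0.36 and did not pass (adjusted p = 0.339). The other Pdgfb probe set (-0.42, adjusted p = 0.272) and the mean over both (0.04, adjusted p = 0.910) did not pass either. The 2 that rose, named after their values were seen, were Pdgfa, a ligand of the alpha receptor (0.85, adjusted p = 4.32e-05), and Pdgfra, that receptor (0.57, adjusted p = 0.0274). Another probe set of Pdgfra fell.

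Junction and surface genes of endothelium gave 3 rises and 3 falls of 11 (1 and 6 under control scaling). Esam, an endothelial adhesion molecule, fell 3.82-fold (adjusted p = 0.000237) and Emcn, an endothelial sialomucin, fell 2.25-fold (adjusted p = 0.00233). The call of Emcn was lost by quantiles and by medians. Cldn12, another claudin, rose 2.44-fold on its brightest probe set (adjusted p = 1.55e-09), and its other one did not pass (-0.17, adjusted p = 0.629). Jam2, a junctional adhesion molecule, rose 2.47-fold on 1 of 5 probe sets (adjusted p = 2.78e-07) while 2 fell. Averaged over its probe sets, Jam2 was lower (-0.62, adjusted p = 0.013), and its rise did not pass under control scaling. Cdh5, the cadherin of endothelial junctions, had a difference of 0.15 (adjusted p = 0.768).

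Barrier transporters gave 3 rises and 5 falls of 13 (4 and 3 with median centring, 1 and 9 under control scaling). Slco1c1, the thyroxine transporter of brain endothelium, fell 2.93-fold (adjusted p = 1.35e-05) and Abcg2, a drug efflux pump, fell 2.71-fold (adjusted p = 0.000629), and both were lower under all 4 scalings. Slc2a1, the glucose transporter of the barrier, rose 3.11-fold on its brightest probe set (adjusted p = 8.77e-10), and 1 of its 3 probe sets fell by 2.11 (adjusted p = 1.97e-09). As the mean over all 3 it did not pass (0.18, adjusted p = 0.249). Abcb1b, a P-glycoprotein gene, rose 2.89-fold on its brightest probe set (adjusted p = 0.000278), and under control scaling it did not pass. The other Abcb1b probe set did not pass (0.28, adjusted p = 0.490).

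Endothelial transcription factors gave 7 rises and 0 falls of 13 with the deposited scaling, and 2 and 3 under control scaling. Foxq1, a forkhead factor of brain endothelium, rose 3.32-fold (adjusted p = 2.68e-06) and Sox17, an arterial endothelial factor, rose 3.01-fold (adjusted p = 1.02e-05). Both are read here from probe sets of a class that can match several genes, and for each the second probe set did not pass.

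Further pericyte genes gave 0 rises and 2 falls of 10 (0 and 0 with quantile normalization, 0 and 7 under control scaling). Those 2, named after their values were seen, were Kcnj8, a potassium channel subunit (-0.86, adjusted p = 0.0203), and Cd248, or endosialin (-0.80, adjusted p = 0.0161). Anpep, Cspg4 and Notch3, an aminopeptidase, a proteoglycan and a Notch receptor of mural cells, had differences of -0.81, -0.25 and -0.43 that did not pass (adjusted p = 0.132, 0.646 and 0.366). Without IP replicate 7, Anpep passed as lower (-1.15, adjusted p = 0.0109). As the mean over 2 probe sets each, Cspg4 and Notch3 were lower (-0.85 and -0.94, adjusted p = 0.012 and 0.00306).

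Contractile genes of smooth muscle gave 3 rises and 5 falls of 14 (4 and 3 with median centring, 0 and 10 under control scaling). Ppp1r14a, which inhibits the phosphatase that acts on myosin light chains such as Myl9, fell furthest, reading 11.0, 20.7 and 205 in IP against 370.3, 521 and 784 in WB. The groups did not overlap, its IP mean was below the trpn level, and the fall was 12.3-fold (-3.62, SE 0.33, adjusted p = 3.02e-09). Myh11, the smooth muscle myosin heavy chain, fell 2.60-fold on its brightest probe set (adjusted p = 0.00109), which was lower under all 4 scalings. The other Myh11 probe set did not pass (-0.50, adjusted p = 0.348). Tagln, or transgelin, was near the dim end in IP and did not pass (-0.31, adjusted p = 0.542).

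Basement membrane genes gave 3 rises and 3 falls of 11 (0 and 7 under control scaling). Lamc1 and Lama4, laminin chains of the vascular basement membrane, fell 2.61-fold and 2.21-fold (adjusted p = 0.000803 and 0.00353), with both probe sets of each lower. The IP mean of Lama4 was below the trpn level, and its call was lost by quantiles. Col4a2, a type IV collagen chain, rose 2.02-fold (adjusted p = 0.000295) and did not pass under control scaling.

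**Figure D5:**
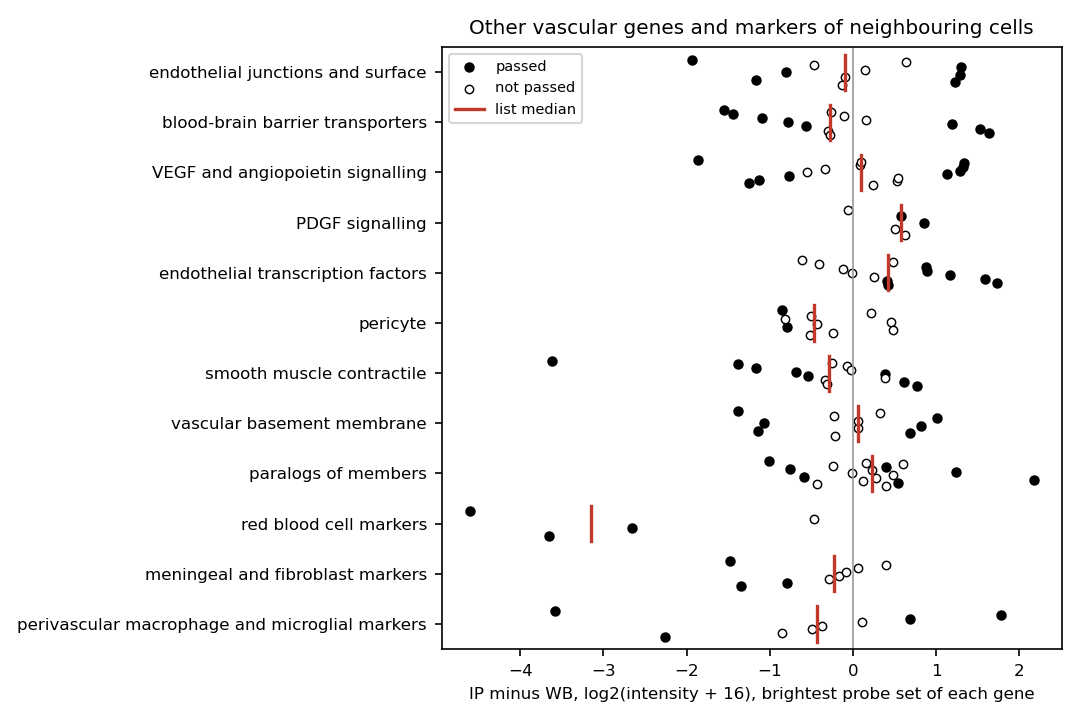
Each point is a gene on its brightest probe set, placed by its difference between IP and WB (log2), filled where the adjusted p was under 0.05, with the list's median in red. Points of the 8 vascular lists lie on both sides of 0, and 3 of the 4 red blood cell markers lie below -2.

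Among 17 relatives of the member genes, 4 rose and 3 fell (10 and 0 with median centring, 1 and 9 under control scaling). Rgs16 and Rgs2, regulators of G-protein signalling like Rgs5, rose 4.51-fold and 2.36-fold (adjusted p = 1.15e-05 and 1.69e-08), each on its brightest probe set. The other probe sets of Rgs16 did not pass (-0.17 and -0.20). In WB both were brighter (means of 8.45 and 8.69, log2) than the one that rose (8.05), which was brightest only through its IP values. Of the other 3 of Rgs2, 1 rose (1.01, adjusted p = 3.2e-06), 1 fell (-2.01, adjusted p = 0.000674) and 1 did not pass. The rise of the brightest Rgs2 probe set did not pass under control scaling. Cldn10, a claudin that is a relative of Cldn5, fell 2.02-fold (adjusted p = 0.00202), and with median centring it did not pass.

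Markers of cells that lie in or beside vessels also differed. Of 4 red blood cell markers measured, out of 7 listed, 0 rose and 3 fell, and their summed intensity was 298 to 1282 on IP arrays and 5089 to 16262 on WB arrays. Hba-a2 and Hbb-b2, globin chains, fell 24.4-fold and 12.6-fold (adjusted p = 1.24e-10 and 6.87e-10), the IP mean of Hba-a2 being below the trpn level. Of 8 meningeal and fibroblast markers 0 rose and 3 fell (0 and 7 under control scaling, 1 and 2 with median centring), with sums of 1841 to 4461 in IP and 3017 to 3736 in WB. Lum, a matrix proteoglycan, and Slc6a13, a meningeal transporter, fell 2.54-fold and 2.80-fold (adjusted p = 0.00289 and 0.00102), and the call of Lum was lost by quantiles. Of 8 perivascular macrophage and microglial markers 2 rose and 2 fell (1 and 5 under control scaling), with sums of 4330 to 8983 in IP and 2903 to 4246 in WB. Aif1 and C1qa, of microglia, fell 12.0-fold and 4.81-fold (adjusted p = 4.57e-10 and 9.26e-07), with IP means below the trpn level. Csf1r, the growth factor receptor of microglia, rose 3.44-fold on its brightest probe set (adjusted p = 7.59e-09). That probe set read 3484 to 7722 in IP and 1046 to 2526 in WB, a large part of that list's sums. Other Csf1r probe sets had differences of -0.14 and -0.54 that did not pass (adjusted p = 0.614 and 0.106). The part of blood and of these other cells in the falls of the vascular genes was not tested.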

How the data were processed

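Intensities of 18 arrays were analysed, 9 IP and 9 WB, grouped by the sample titles. MAS5, per the submitters' processing notes, gave the deposited intensity values, from 5 ng of RNA amplified with NuGen WT-Ovation Pico, per the labels' protocols. They are linear, and each array's mean without the lowest and highest 2% was 500.0. Detection calls were not used here. After adding 16 and taking log2, 45037 probe sets (64 array controls left out) were fitted with limma 3.58.1 in R 4.3.3, with an intensity trend and Benjamini-Hochberg adjustment over all of them. No brightness filter was applied. Within-array gaps between probe sets were tested by two-sided exact permutation over 48620 divisions of the arrays (Python 3.11.15), adjusted over 10 pairs. Gene symbols came from GEO's platform annotation, with 34945 probe sets having 1 symbol, 932 several and 9160 none listed, and all 10 members matched the reference gene table. Each list gene is read from its brightest probe set (mean of 18 arrays). Of list genes, 11 were always named, plus up to 2 rises and 2 falls per list of at least 2-fold, exceptions being stated. Members and lists were chosen with earlier results of these data known. Alternatives were constants of 1 and 64, 3 scalings (the hybridization control scaling used 18 probe sets), 2 filters at an intensity of 100, no trend, array weights, a replicate block, leaving out each array and means over probe sets. The procedures were tested on simulated data. The number of arrays limits the precision.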

Additional observations from a re-analysis of the deposited data

Results flagged for a closer look

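In 4 of the 40 groups of 9 arrays examined (20 probe sets in IP and in WB), 1 array stood apart, its gap to the nearest other array taking more than the critical share of the group's whole log2 range. Chance alone gives about 1 in 20 groups. On Acta2 1416454_s_at, IP replicate 7 was lowest at 64.9, against 298 for the next array, a share of 0.622. On Vtn 1420484_a_at, IP replicate 2 was lowest at 26.8, against 123 for the next, a share of 0.516. On Rgs5 1420941_at, WB replicate 1 was lowest at 769.8, against 941 for the next, a share of 0.558. On Flt1 1419300_at, WB replicate 5 was highest at 191, against 55.5 for the next, a share of 0.661. Leaving out any of these arrays changed no call of these probe sets.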

How the results depend on the processing

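The count of 12 member probe sets lower in IP ranged from 9 to 16 over the other settings, and was 12 in each fit without 1 array. Median centring gave the 9, with 18.5% of all probe sets lower. Control scaling gave the 16, with 62.4% of all probe sets lower. The count of 1 higher was 2 with median centring (Slco1a4 added), where 28.4% of all probe sets were higher. Rgs5 1417466_at turned to 0.024 with median centring. No call of a member probe set was lost or gained in the 18 fits that left out 1 array. Over all probe sets, 18.5% were lower with median centring, 22% with quantile normalization and 62.4% under control scaling. In the same order 28.4%, 24.1% and 3.24% were higher. In the 8 vascular lists the 22 lower genes (of 92) became 11 with median centring, 14 with quantile normalization and 52 under control scaling. The 25 higher genes became 36 with median centring, 31 with quantile normalization, 13 with means over probe sets and 4 under control scaling. Without 1 array they ranged from 21 to 24 lower and from 21 to 26 higher. No pairing by replicate number was visible. Correlations of same-numbered deviations ran from -0.05 to 0.08, and 2 of 9 IP arrays correlated best with their own number. These values cannot exclude a pairing, as spread was wide in IP and the labels do not settle it. With the replicate block, 12 member probe sets were lower and 1 higher, with 13707 lower and 6313 higher over all probe sets. The filters at an intensity of 100 removed 2 or 3 of the 20 probe sets. Deposited intensities without detection calls limit what can be said of probe sets near the trpn level.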

Other observations

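Some genes had probe sets that passed in opposite directions, at a share among vascular list genes near that of all genes. Of 59 vascular list genes with 2 or more probe sets, 12 (20.3%) had both a rise and a fall, and in 10 of these the brightest probe set was the one that rose. Over all 9010 genes with 2 or more probe sets, 1985 (22%) did so, and in 1623 the brightest had risen. Brightness includes the IP values, so a probe set that rose is more readily the brightest. No conclusion is drawn from how often the brightest rose. The 12 were Jam2, Slc2a1, Slco2b1, Vegfa, Vegfc, Nrp1, Nrp2, Pdgfra, Foxc1, Mylk, Ppp1r12a and Nid1, chosen after their values were seen. Of the 5 member genes with 2 or more probe sets, 0 did so.

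In the reference gene table the protein-coding gene directly after Pdgfrb is Csf1r, a related receptor tyrosine kinase of microglia. Both rose on their brightest probe set, Pdgfrb by 1.64 and Csf1r by 1.78 (log2, limma adjusted p = 3.59e-08 and 7.59e-09), and neither rose on another. The other 2 probe sets of Csf1r had differences of -0.14 and -0.54 (adjusted p = 0.614 and 0.106). This pair was chosen after its values were seen.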
